A study of Mnemiopsis leidyi with 31 samples.

Results

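Embryos of the ctenophore Mnemiopsis leidyi at 7 hours post fertilization (hpf) were compared with embryos at 6 hpf by RNA-seq of polyadenylated RNA. The comparison took 6 of the 31 libraries of an hourly series from 1 to 9 hpf, and 6 of the 8 at these hours. The 6 hpf libraries carry the codes 2012_23, 2013_26 and 2013_46, and the 7 hpf libraries carry the codes 2013_17, 2013_27 and 2013_47. Each is a pool of 100 to 200 whole embryos spawned by animals collected in the wild, with no treatment and no named strain. The libraries 6 hpf 2012_N2 and 7 hpf 2012_N1 were left out because they lay apart from their hours, and they are described at the end. No label says which libraries came from 1 spawning, so p-values measure only the spread between these libraries. Codes that share their first digit are called a code series here (2013_26 and 2013_27 in series 2013_2, 2013_46 and 2013_47 in series 2013_4). All 3 libraries of 7 hpf are of 2013 and 1 of the 3 at 6 hpf is of 2012, so for that library the year and the hour cannot be told apart.

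Ctenophores, or comb jellies, are gelatinous marine predators that swim with rows of fused cilia, the comb plates. Their embryos cleave in a fixed pattern, gastrulate early and then build comb plates, tentacle bulbs, a pharynx and an apical sense organ. As in other animals, the egg starts with maternal messenger RNA, which is degraded over time while the embryo's own genes are switched on. In whole embryos, fewer cells of a type and less RNA per cell cannot be told apart.

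Counts were given for 31067 transcript records, which have numbered identifiers and no gene names. None of the identifiers (0 of 31067) was found in the gene table used here, so functions could not be assigned and the labelled stage could not be checked against marker genes. Total counts of the 6 libraries ran from 24590403 (6 hpf 2013_46) to 66728425 (7 hpf 2013_47), and 15089 records had enough counts to be tested. Levels are given as CPM, counts scaled to the library total with TMM factors on 1 common scale. Elsewhere in the series the column of 1 hpf 2012_N7 was below that of 9 hpf 2012_37 in 0 records and that of 4 hpf 2012_N4 below that of 5 hpf 2012_14 in 0 records. No column of 6 or 7 hpf stood in this relation, the nearest case having 847 records below. Reads were not tagged with molecular identifiers, and intervals computed from reads cover counting error only.

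In both code series with a library at each hour, the 2 libraries resembled each other more than any 2 of the compared libraries of 1 hour. Over the tested transcripts, Pearson's r of log2(CPM + 1) was 0.994 between 6 hpf 2013_26 and 7 hpf 2013_27 and 0.971 between 6 hpf 2013_46 and 7 hpf 2013_47. Between libraries of the same hour r ran from 0.908 to 0.963 (6 pairs, median 0.954), and between libraries that shared neither hour nor series from 0.918 to 0.966 (7 pairs, median 0.943). Likeness within a series was not general, since r was 0.928 between 7 hpf 2013_47 and 8 hpf 2013_48 and 0.875 between the left-out 6 hpf 2012_N2 and 7 hpf 2012_N1. These correlations are across transcripts, which are not independent replicates. The standard deviation of the log2 difference was 0.311 and 0.616 within the series and 0.703 to 1.14 within an hour. Of the sum of squares in the 4 libraries of the 2 series, 73.3% lay between the series, 15.8% between the hours and 10.8% in how the series differed in their change. Each series has 1 library per hour, so the last part cannot be told from differences between single libraries. Such differences enter the other parts too.

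**Figure D1:**
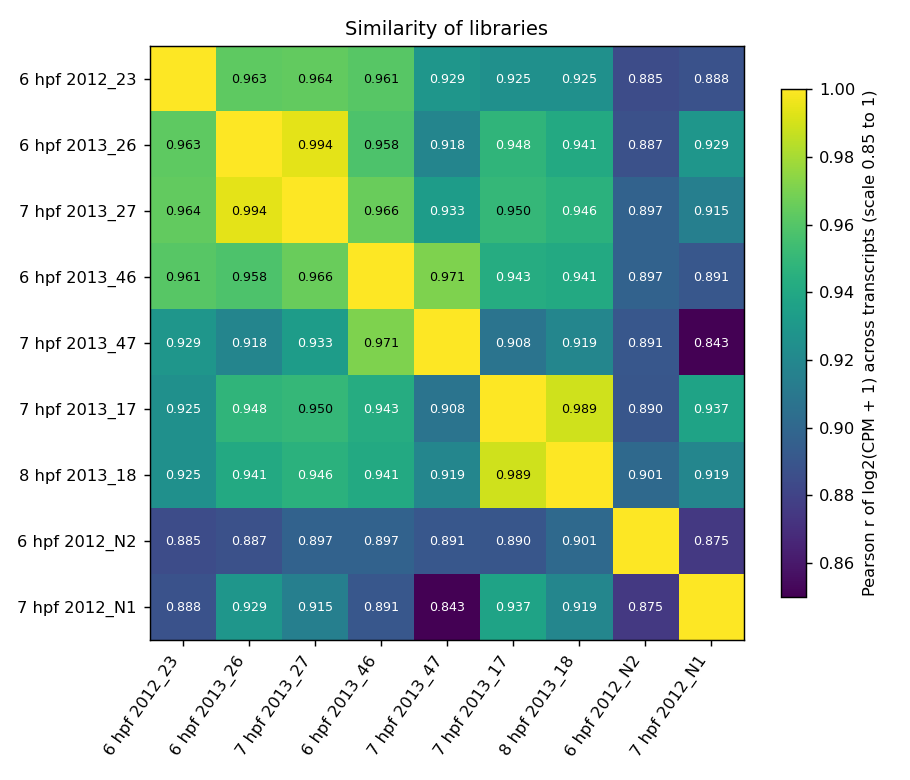
Pearson's r of log2(CPM + 1) over 15089 transcripts for each pair of 9 libraries, as numbers and colours (scale 0.85 to 1). The within-series pairs 2013_26 with 2013_27 (0.994), 2013_17 with 2013_18 (0.989) and 2013_46 with 2013_47 (0.971) stand above the same-hour pairs of the 6 compared libraries (0.908 to 0.963). The left-out libraries 6 hpf 2012_N2 and 7 hpf 2012_N1, of 1 series, have 0.875 between them. The library 6 hpf 2012_N2 lies lower, with 0.885 to 0.897 against the other libraries of 6 hpf. The library 7 hpf 2012_N1 has 0.937, 0.915 and 0.843 with 7 hpf 2013_17, 2013_27 and 2013_47.

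The remaining libraries of the comparison had no partner at the other hour. The library 7 hpf 2013_17 was nearest to 8 hpf 2013_18 of its own series (r = 0.989), and 6 hpf 2012_23 was nearest to 7 hpf 2013_27 (r = 0.964), with 6 hpf 2013_26 close behind (r = 0.963). Deviations from the mean of the hour went together within a series (r = 0.595 for 2013_26 with 2013_27 and 0.555 for 2013_46 with 2013_47). Across the series they went apart (r = -0.609 for 2013_26 with 2013_47 and -0.595 for 2013_46 with 2013_27). Deviations of 3 libraries from their mean sum to 0, so negative values among them arise in part from the centring.

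In the 6-library comparison no transcript passed the threshold of an adjusted p of 0.05. Of 15089 tested transcripts, 0 passed in either direction (0.0%, edgeR's quasi-likelihood test with Benjamini-Hochberg adjustment, smallest adjusted p = 0.999). An unadjusted p under 0.05 was seen for 330 (2.19%), of which 186 were higher and 144 lower at 7 hpf. With library totals alone in place of TMM factors these were 127 higher and 226 lower. The scaling moved the median log2 fold change of all transcripts from 0.06 to -0.08, so small changes have no fixed direction. DESeq2 gave 1 transcript higher and limma gave 0. The biological coefficient of variation was 0.5984, the median absolute log2 fold change 0.37 and the median standard error (SE) of a log2 fold change 0.62. Leaving out 6 hpf 2012_23 lowered the number with an unadjusted p under 0.05 to 54, and leaving out 7 hpf 2013_27 raised it to 975, with 0 calls in each case.

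The transcripts with the smallest p-values whose levels did not overlap between the hours, and which moved the same way in both code series, differed by amounts that did not pass. Mle_029336 (1294 bases) had 4.72, 8.51 and 10 CPM in 6 hpf 2012_23, 2013_26 and 2013_46. At 7 hpf it had 26.4, 12.9 and 31.3 CPM in 2013_17, 2013_27 and 2013_47. The lowest 7 hpf library lay just above the highest 6 hpf library, with means of 7.75 ± 2.73 and 23.5 ± 9.56 CPM (SD, n = 3 each). The log2 fold change was 1.60 (SE 0.50; edgeR adjusted p = 0.999), which did not pass. From 12.4 to 31.2 CPM of this transcript were already present in the libraries of 1 and 2 hpf, so it was not absent before 6 hpf.

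Mle_027209 (309 bases) had 2.82, 5.67 and 5.95 CPM at 6 hpf, in the order of libraries above. At 7 hpf it had 48.4, 11.9 and 8.88 CPM. A single library, 7 hpf 2013_17, stood far above the others, and 8 hpf 2013_18 of the same code series had 42 CPM, against 8.48 CPM in 8 hpf 2013_28 and 7.16 CPM in 8 hpf 2013_48. Its log2 fold change was 2.26 (SE 0.71; edgeR adjusted p = 0.999), and 1.11 without 7 hpf 2013_17.

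Among transcripts that were lower, Mle_005113 (2852 bases) had 85.6, 68.1 and 162 CPM at 6 hpf. Its 7 hpf values were 42.7, 51.3 and 41.5 CPM, below every 6 hpf library and close to one another. The log2 fold change was -1.22 (SE 0.39; edgeR adjusted p = 0.999), from 105 ± 49.7 to 45.2 ± 5.35 CPM (SD, n = 3 each). Without 6 hpf 2013_46 it was -0.75. At 8 hpf the 5 libraries had 21.3 to 41.4 CPM, none above the lowest 7 hpf library. In series 2013_2 this transcript began at 2.34 CPM at 1 hpf and reached 41.7 CPM at 4 hpf and 60.0 CPM at 5 hpf, so that it was a transcript of the middle hours there. In series 2013_3 it already had 51.4 CPM at 2 hpf and 69.9 CPM at 3 hpf. The left-out libraries were the other way round, with 29.5 CPM in 6 hpf 2012_N2 and 122 CPM in 7 hpf 2012_N1.

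Mle_015484 (4938 bases) had 35.4, 12.3 and 20.8 CPM at 6 hpf. At 7 hpf it had 4.19, 9.05 and 8.45 CPM, again below every 6 hpf library. The log2 fold change was -1.66 (SE 0.53; edgeR adjusted p = 0.999). It was scarce in series 2013_2 at 1 to 3 hpf (0.0764 to 0.522 CPM), stood at 11.9 CPM at 5 hpf and was at 3.81 CPM at 8 hpf. Series 2013_3 differed, with 12.4 CPM at 2 hpf and 15.1 CPM at 3 hpf. Both transcripts that were lower thus had their highest level in the libraries of 2013 at 6 hpf or earlier and lower levels at 7 and 8 hpf.

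**Figure D2:**
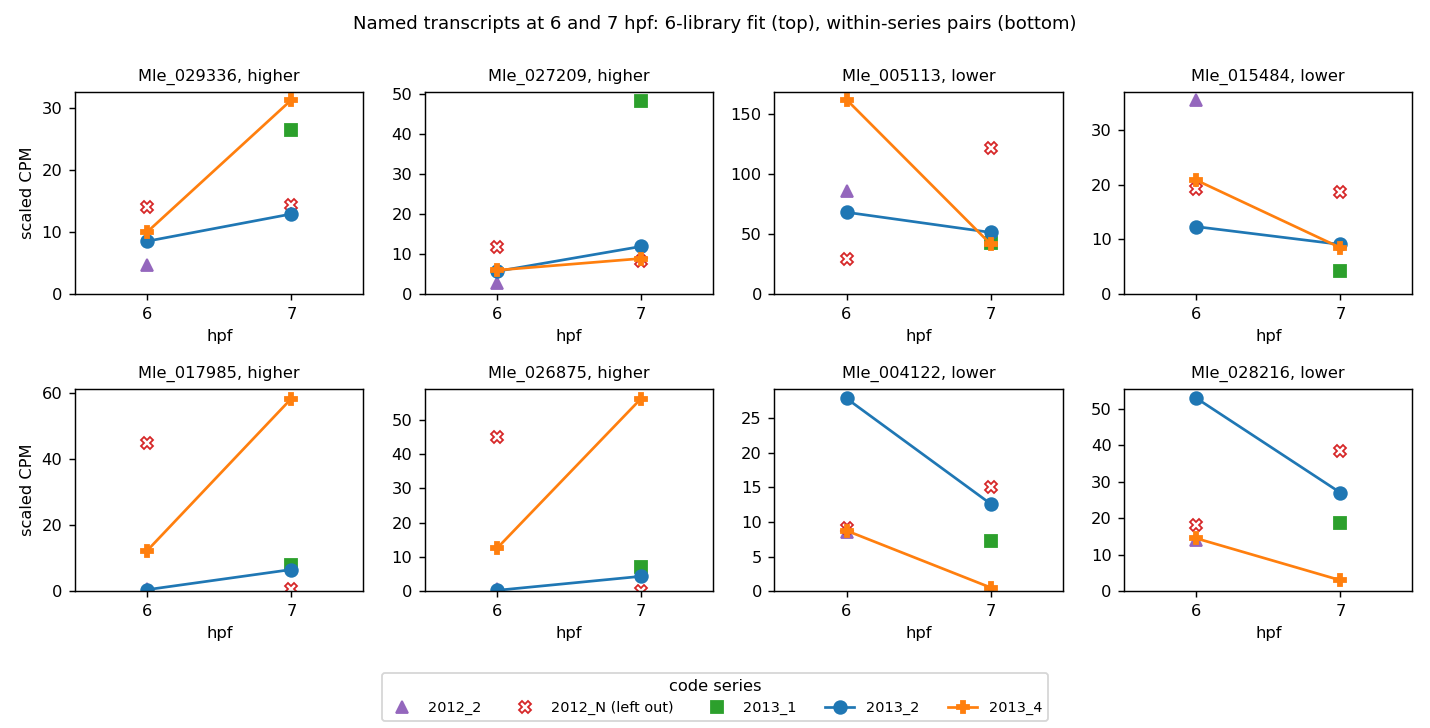
Scaled CPM at 6 and 7 hpf of the 4 transcripts named in the 6-library comparison (top) and the 4 named in the within-series pairs (bottom), 1 point per library, with lines joining libraries of 1 code series and open crosses for the left-out libraries. In the top row the 3 filled points of each hour do not overlap, and in the bottom row the lines run the same way while the hours overlap, as for Mle_026875 with 12.5 CPM in 6 hpf 2013_46 and 4.36 CPM in 7 hpf 2013_27.

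Levels of the 3 libraries of 7 hpf lay above all 3 of 6 hpf for 360 transcripts (2.39%) and below all of them for 516 (3.42%). For 3 against 3 libraries in random order, full separation in 1 direction or the other has a probability of 0.1. The 2 shares together stayed under that. This probability holds only for libraries that are alike apart from the hour, and here code series pair libraries across the hours. The counts therefore cannot decide whether levels changed with the hour, and the groups are only described. Scaling by library totals alone turned these into 137 and 789. With the left-out libraries added, 85 and 195 remained without overlap. The 2 groups of transcripts differed in what they had been earlier. Of those higher, 53.1% had been abundant from the start (at least 10 CPM in each of the 10 libraries of 2013 at 1 to 5 hpf), against 34.3% of all tested. Of those lower, 7.36% had, and 36.8% had been under 1 CPM in each of these libraries, against 21.6% of all tested. Over all tested transcripts, medians by earlier level differed most from 6 hpf 2012_23 to 7 hpf 2013_17, a step across years. There the median log2 change was -0.27 for those under 1 CPM early and 0.21 for those abundant early. From 2013_26 to 2013_27 these were -0.04 and 0.06, and from 2013_46 to 2013_47 0.12 and -0.01. The transcripts that were lower were scarce, with a median of 1.25 CPM over the 6 libraries against 19.7 CPM for those higher. Their median was 2.27, 1.40 and 1.38 CPM at 6 hpf and 0.557, 0.838 and 0.766 CPM at 7 hpf.

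The same transcripts were read at 8 hpf. Of the 360, 40.8% were higher in 8 hpf 2013_28 than in 7 hpf 2013_27 and 37.2% higher in 8 hpf 2013_48 than in 7 hpf 2013_47, against 56.2% and 53.4% of all tested. From 6 to 8 hpf, 57.5% were higher from 2013_26 to 2013_28 (48% of all tested), 58.3% from 2013_46 to 2013_48 (54.4%) and 93.1% from 2012_23 to 2013_18 (51.9%). Of the 516, 73.3% and 72.3% were higher at 8 hpf than at 7 hpf in series 2013_2 and 2013_4, and from 6 to 8 hpf the shares in the same order as above were 36.6%, 42.6% and 8.53%. Each step starts from a library that had been used to choose the transcripts, so none of these shares is a separate check.

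Within the code series the same hour could be followed with the differences between series removed. From 6 hpf 2013_26 to 7 hpf 2013_27, 77 transcripts were at least 2-fold higher on the log2(CPM + 1) scale (0.51%) and 10 at least 2-fold lower (0.0663%). From 6 hpf 2013_46 to 7 hpf 2013_47 the numbers were 899 (5.96%) and 493 (3.27%). Each of these pairs has 1 library per hour, so the counts carry no test.

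Increases seen in 1 series were mostly increases in the other. Of the 77 transcripts higher in the first pair, 73 were also higher in the second pair (94.8%, Wilson 95% interval 87.4% to 98%), against 52.9% of all tested transcripts. Their median log2 change in the second pair was 1.31, against 0.03 for all tested. Of the 899 chosen in the second pair, 685 were higher in the first (76.2%, interval 73.3% to 78.9%), against 45.7% of all tested, with a median change of 0.19. Transcripts regulated together are not independent, so that these intervals cover counting of transcripts only. In 6 hpf 2012_23 and 7 hpf 2013_17, libraries that chose none of the 899, the agreement was weaker. There 519 of them were higher at 7 hpf (57.7%, median change 0.17), against 50.0% and 0.00 of all tested.

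For decreases the shares were nearer to those of all transcripts where many were chosen. Of the 10 transcripts lower in the first pair, 9 were lower in the second (90.0%, Wilson 95% interval 59.6% to 98.2%), against 47.1% of all tested. Of the 493 lower in the second pair, 300 were lower in the first (60.9%, interval 56.5% to 65.1%), against 54.1% of all tested. From 6 hpf 2012_23 to 7 hpf 2013_17, libraries that chose none of them, 309 of the 493 were higher (62.7%, median change 0.53). Of all tested 50.0% were, with a median change of 0.00. At 7 hpf these 493 transcripts had a median of 5.13 CPM in 2013_47, against 16.2 CPM in 2013_27 and 23.7 CPM in 2013_17, and at 6 hpf the median was 13.7 to 17.8 CPM in the 3 libraries. From 7 hpf 2013_47 to 8 hpf 2013_48, 78.3% of them were higher, against 53.4% of all tested. That step starts from a library used to choose them.

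In both pairs, 50 transcripts were at least 2-fold higher (0.331%) and 3 at least 2-fold lower (0.0199%), and 1 changed by that much in opposite directions. With library totals alone the counts were 38 and 9. The transcript nearest inside the limit on the higher side had a smaller change of 1.0084 and the nearest outside 0.9927, and on the lower side these were -1.0781 and -0.9998. Over all tested transcripts the changes of the pairs had a Pearson's r of 0.242, a correlation across transcripts.

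**Figure D3:**
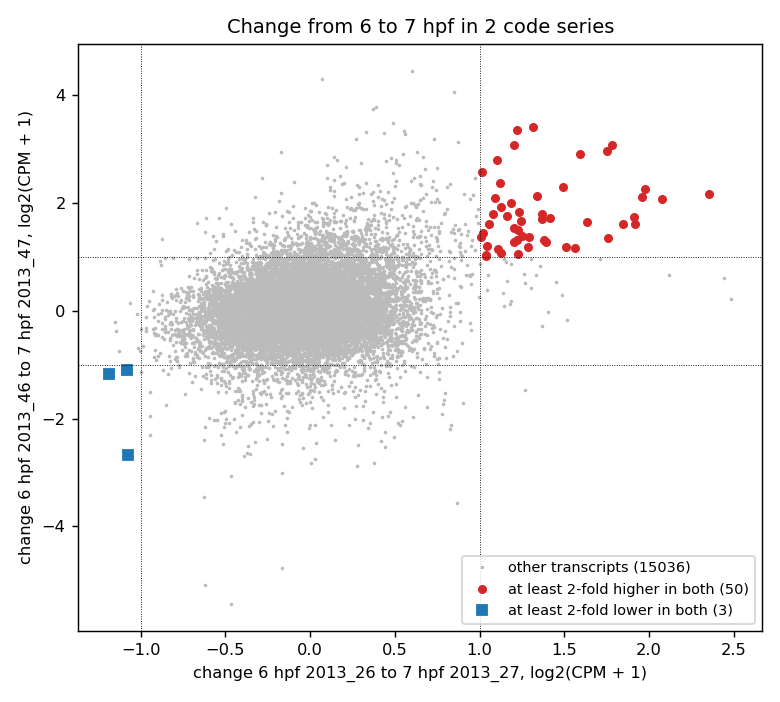
Change from 6 to 7 hpf in log2(CPM + 1) for each of 15089 transcripts in code series 2013_2 (horizontal) and 2013_4 (vertical), with dotted lines at 2-fold. The 50 transcripts at least 2-fold higher in both series (circles) fill the upper right corner, 3 are at least 2-fold lower in both (squares), and the vertical spread is wider than the horizontal one (standard deviations 0.616 and 0.311).

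The transcripts with the largest changes shared by both series went from near absence or a low level to moderate levels. Mle_017985 (1423 bases) had 0.483 CPM in 6 hpf 2013_26 (16 reads) and 6.57 CPM in 7 hpf 2013_27 (196 reads), a ratio of 13.6 (95% interval 8.17 to 24.3). In the second pair it went from 12.3 CPM (303 reads) to 58.3 CPM (3734 reads), a ratio of 4.76 (4.23 to 5.37). The unpaired libraries had 0.692 CPM in 6 hpf 2012_23 and 7.96 CPM in 7 hpf 2013_17. All 3 contrasts run the same way, yet the hours overlap, because 6 hpf 2013_46 was above both 7 hpf 2013_27 and 7 hpf 2013_17. The left-out libraries were the other way round, with 44.9 CPM in 6 hpf 2012_N2 and 0.539 CPM in 7 hpf 2012_N1. It also had 36.4 CPM in 1 hpf 2012_N7.

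Mle_026875 (3234 bases) had 0.272 CPM in 6 hpf 2013_26 (9 reads) and 4.36 CPM in 7 hpf 2013_27 (130 reads), a ratio of 16 (8.20 to 35.9). In the second pair it went from 12.5 to 56.2 CPM, a ratio of 4.50 (4.01 to 5.07). In 6 hpf 2012_23 and 7 hpf 2013_17 it had 0.717 and 6.95 CPM. It was under 1 CPM in each of the 10 libraries of 2013 at 1 to 5 hpf, and it reached 27.3 CPM in 8 hpf 2013_28 and 220 CPM in 9 hpf 2013_49. Libraries of 2012 differed, with 18.3 CPM in 1 hpf 2012_N7 and 31.4 CPM in 2 hpf 2012_N6. The left-out libraries had 44.9 CPM in 6 hpf 2012_N2 and 0.135 CPM in 7 hpf 2012_N1, the other direction.

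On the lower side Mle_004122 (374 bases) went from 27.8 to 12.6 CPM in the first pair, a ratio of 0.455 (0.402 to 0.513). In the second pair it went from 8.74 CPM (216 reads) to 0.531 CPM (34 reads), a ratio of 0.0608 (0.0411 to 0.0876). In 6 hpf 2012_23 and 7 hpf 2013_17 it had 8.50 and 7.24 CPM, and in 8 hpf 2013_48 it was back at 7.58 CPM. The 2 series stood at different levels at both hours, and the lowest value of the 6 was in 7 hpf 2013_47.

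Mle_028216 (1204 bases) went from 52.9 to 27 CPM in the first pair, a ratio of 0.510 (0.469 to 0.555). In the second pair it went from 14.5 to 3.02 CPM, a ratio of 0.208 (0.173 to 0.248). In 6 hpf 2012_23 it had 14.1 CPM and in 7 hpf 2013_17 18.7 CPM, the other direction. Series 2013_2 held 40.7 to 61.7 CPM from 1 to 5 hpf. Its first change in the pair missed 2-fold on the log2(CPM + 1) scale (-0.95), and it was named by the size of its smaller change among transcripts of at least 10 CPM.

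A fit with the code series as a block, on the 4 libraries of the pairs alone, made calls where the 6-library comparison made none. Of 15364 transcripts tested, 91 rose (0.592%) and 4 fell (0.026%) at an adjusted p under 0.05 (edgeR's quasi-likelihood test). The same 4 libraries with no block gave 0. Mle_017985 rose with a log2 fold change of 2.84 ± 0.37 (SE; edgeR adjusted p = 0.00129) and Mle_026875 with one of 2.80 ± 0.40 (SE; edgeR adjusted p = 0.0029). For the falls these were -2.46 ± 0.52 for Mle_004122 (edgeR adjusted p = 0.0429) and -1.61 ± 0.34 for Mle_028216 (edgeR adjusted p = 0.0405). Of the 4 transcripts named in the 6-library comparison none passed here (adjusted p from 0.174 to 0.463, edgeR), and Mle_027209 and Mle_015484 had smaller log2 fold changes of 0.82 and -0.88.

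This fit has 1 residual degree of freedom, and its error rests on what is shared across transcripts. With library totals alone it gave 0 calls in either direction (1059 at an unadjusted p under 0.05), with limma 25 higher and 0 lower, and with DESeq2 124 higher and 11 lower. The calls of both named falls were lost under library totals and limma, with log2 fold changes of -2.58 and -2.53 for Mle_004122 and of -1.72 and -1.62 for Mle_028216. With the block over all 19 libraries of 2013 there were 0 calls and 389 of 21255 at an unadjusted p under 0.05. That fit contains the same 4 libraries, so that its direction for the 91 is no separate check. Of the 91, 40 belonged to the 50 at least 2-fold higher in both pairs (44.0% of the former, 80.0% of the latter).

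Of the 91 transcripts that rose, 0 had been abundant early (34.3% of all tested), 37 were under 1 CPM in each library of 2013 at 1 to 5 hpf (40.7%, against 21.6%) and 54 lay between. Their median level was 0.0764 to 0.325 CPM in series 2013_2 at 1 to 5 hpf, but 16.9 CPM in 1 hpf 2012_N7 and 38.4 CPM in 2 hpf 2012_N6. The median log2 fold change was 2.16, from 1.35 to 5.95. From 6 hpf 2012_23 to 7 hpf 2013_17, libraries that did not enter the fit, 73 of the 91 were higher (80.2%), against 50.0% of all tested, with a median change of 0.62. All 91 were higher in 8 hpf 2013_28 than in any earlier library of series 2013_2 (28.6% of all tested), and 90 were higher in 8 hpf 2013_18 than in 7 hpf 2013_17 (51.6% of all tested). Series 2013_4 differed, with 44 of the 91 higher in 8 hpf 2013_48 than in 7 hpf 2013_47. This was 48.4%, with a median change of -0.02, against 53.4% of all tested.

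The 50 transcripts that were at least 2-fold higher in both pairs can be followed through the whole series. Their median level was under 1 CPM in series 2013_2 from 1 to 5 hpf (0.153 to 0.771 CPM). Other early libraries were higher, with 29.3 CPM in 1 hpf 2012_N7, 64.7 CPM in 2 hpf 2012_N6, 7.92 CPM in 4 hpf 2012_N4 and 3.40 CPM in 4 hpf 2013_34. At 6 hpf it was 3.63 CPM in 2012_23, 2.14 CPM in 2013_26 and 12.1 CPM in 2013_46. At 7 hpf it was 11.3 CPM in 2013_17, 7.93 CPM in 2013_27 and 57.8 CPM in 2013_47. The 6 libraries thus did not separate by hour: 6 hpf 2013_46 was level with or above 2 of the 7 hpf libraries. It exceeded 7 hpf 2013_27 in 41 of the 50 transcripts (82.0%, against 53.2% of all tested). It exceeded 7 hpf 2013_17 in 34 (68.0%, against 51.1% of all tested). Of the 50, 3 had no overlap between the hours (the background being 2.39%). The highest of the 6 libraries was 7 hpf 2013_47 for 47 of the 50, and the lowest was 6 hpf 2013_26 for 35 and 6 hpf 2012_23 for 12. The rule fixes these counts in part. It keeps 6 hpf 2013_26 and 2013_46 from being the highest and 7 hpf 2013_27 and 2013_47 from being the lowest.

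Their share of all counts went from 0.0677% in 6 hpf 2013_26 to 0.157% in 7 hpf 2013_27, and from 0.307% in 6 hpf 2013_46 to 0.864% in 7 hpf 2013_47. It was 0.0837% in 6 hpf 2012_23 and 0.167% in 7 hpf 2013_17. In libraries the rule did not use, 41 of the 50 were higher in 7 hpf 2013_17 than in 6 hpf 2012_23 (82.0%, median change 1.04), against 50.0% and 0.00 of all tested transcripts. At 1 CPM or more were 38 of the 50 in 6 hpf 2012_23, 33 in 2013_26 and 49 in 2013_46. Of all 15089 tested these were 11584, 10863 and 11494. All 50 were at 1 CPM or more in each compared library of 7 hpf, which the rule fixed in 2013_27 and 2013_47 but not in 2013_17. Of all tested, 10814 were in 2013_17. In the left-out 7 hpf 2012_N1, 23 of the 50 were.

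In series 2013_2 the increase had begun before 6 hpf and went on after 7 hpf. There 46 of the 50 were already higher at 6 hpf than at 5 hpf (92.0%, median change 0.99, against 52.5% of all tested). From 7 to 8 hpf 50 were higher (median 1.79), against 56.2% of all tested. In series 2013_1, 49 were higher in 8 hpf 2013_18 than in 7 hpf 2013_17 (98%, against 51.6% of all tested). Series 2013_4 took another course after 7 hpf: 20 of the 50 were higher in 8 hpf 2013_48 than in 7 hpf 2013_47 (40.0%, median change -0.35, against 53.4% of all tested). The next library of that series, 9 hpf 2013_49, was then the highest for 45 of the 50 (90.0%, against 27.3% of all tested), with a median of 216.5 CPM and 2.16% of all counts. From 6 hpf 2013_46 to 8 hpf 2013_48 the median change was 1.51, and from 6 hpf 2013_26 to 8 hpf 2013_28 it was 3.04. Steps of series 2013_2 and 2013_4 that start or end at 6 or 7 hpf share a library with the pairs that chose the 50.

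**Figure D4:**
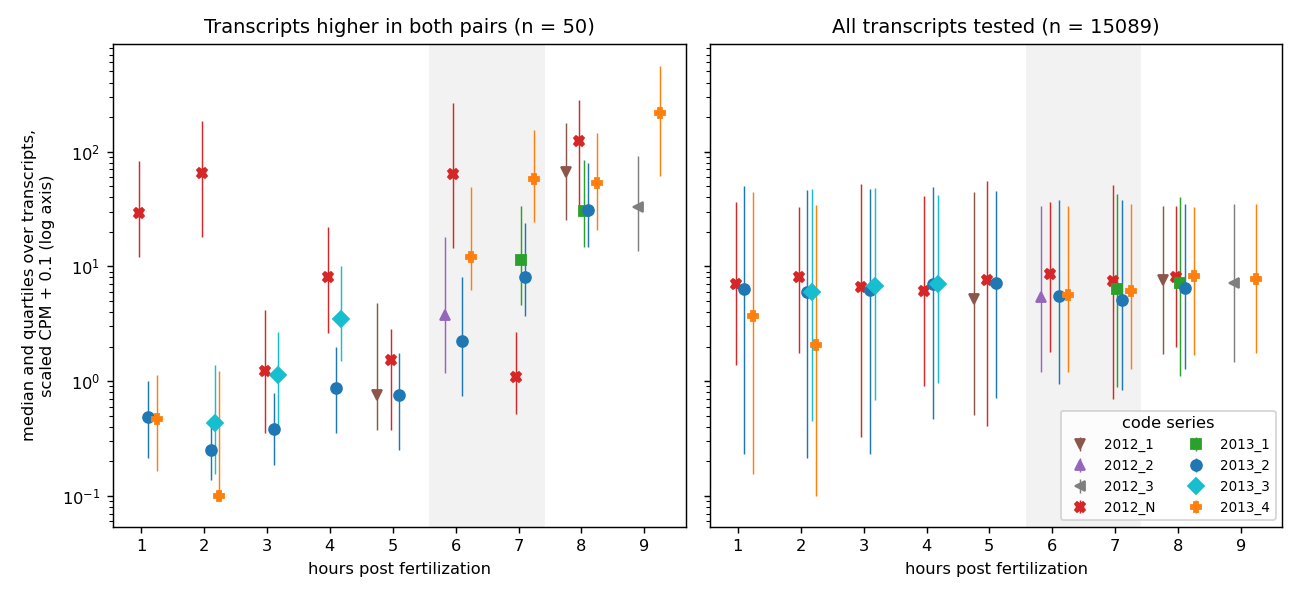
Median and quartiles over transcripts of CPM + 0.1 (log axis) in each of the 31 libraries by hour, for the 50 transcripts at least 2-fold higher in both pairs (left) and for all 15089 tested (right), with a marker for each code series and the hours compared shaded. The 50 climb from under 1 CPM in series 2013_2 at 1 to 5 hpf to 30.8 CPM at 8 hpf while the medians of all tested stay between 1.97 and 8.48 CPM, and 6 hpf 2012_N2 (63.9 CPM) and 7 hpf 2012_N1 (0.983 CPM) lie at opposite ends of their hours.

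Few of the 50 had been abundant early. Of them, 9 were under 1 CPM in every library of 2013 at 1 to 5 hpf (18%, near the 21.6% of all tested), 40 lay between (80.0%, against 44.1%), and 1 had been abundant from the start (2.0%, against 34.3% of all tested). Their median length was 2221 bases, against 1899 for all tested. The log2(CPM + 1) scale understates changes well under 1 CPM, so that the scarcest transcripts needed a larger ratio to enter this list. Read by earlier level over all tested transcripts, at least 2-fold increases in both pairs were 0.276% of those under 1 CPM early, 0.601% of those between and 0.0193% of those abundant early. At least 2-fold decreases in the second pair took 3.13% of the transcripts abundant early and 4.63% of those between, and in the first pair 0.0193% and 0.135%. The 493 decreases of the second pair were of shorter transcripts, with a median of 1296 bases.

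Set beside the hours around it, the step from 6 to 7 hpf was small in series 2013_2. From 5 to 6 hpf 929 transcripts were at least 2-fold higher and 1603 lower, and from 7 to 8 hpf 790 were higher and 216 lower, against 77 and 10 from 6 to 7 hpf. In series 2013_4 the step from 6 to 7 hpf had 899 and 493, and that from 7 to 8 hpf 2038 and 1985. The step from 7 to 8 hpf in series 2013_1 had 277 and 74. Neighbouring steps share a library, each step has 1 library per hour, and the differences between steps were not tested.

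**Figure D5:**
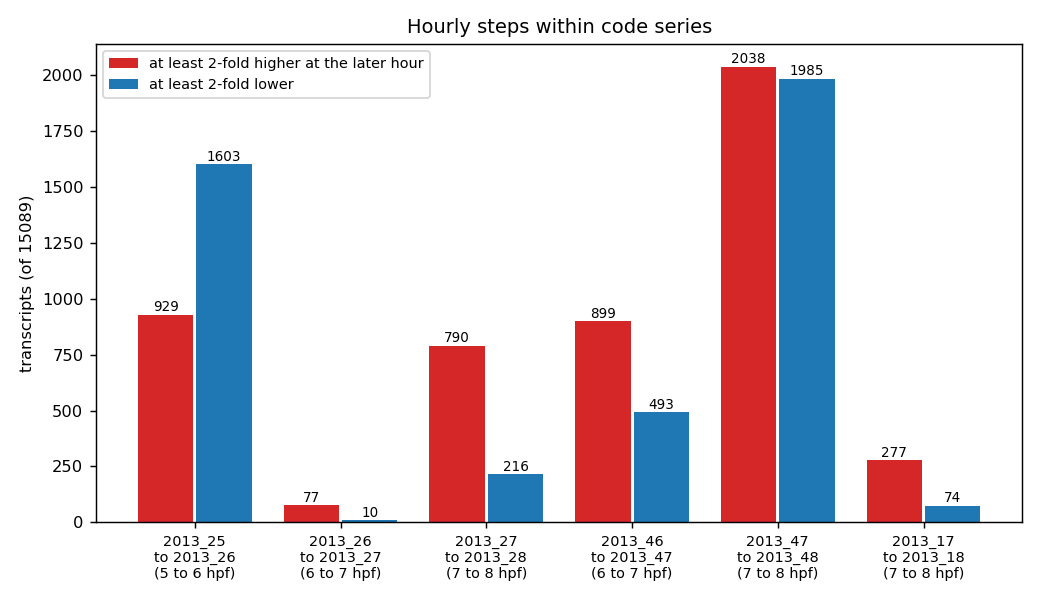
Number of the 15089 tested transcripts at least 2-fold higher (red) or lower (blue) at the later hour, for each hourly step from 5 to 8 hpf that a code series of 2013 holds, with 1 library at each end. The step from 2013_26 to 2013_27 has the fewest (77 and 10) and that from 2013_47 to 2013_48 the most (2038 and 1985).

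The number of transcripts detected did not separate the hours. At 1 CPM or more of the library total there were 11559 ± 547 records at 6 hpf and 11013 ± 675 at 7 hpf (SD, n = 3 each). The difference of -545.7 had a two-sided p of 0.4 in an exact permutation test, in which 3 against 3 libraries cannot go below 0.1. The difference was -266 without 6 hpf 2012_23, -273.7 without 7 hpf 2013_27, -923.7 without 7 hpf 2013_47, -251.7 on the TMM scale and -1449 with all 8 libraries.

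The most abundant transcripts per length overlapped between the hours. Mle_005005 (1573 bases) had 3400, 38200 and 17100 RPKM (CPM divided by the length of the record in kilobases) in 6 hpf 2012_23, 2013_26 and 2013_46. At 7 hpf it had 9970, 22900 and 5900 RPKM in 2013_17, 2013_27 and 2013_47, inside the range of 6 hpf. Its log2 fold change was -0.60 (SE 0.79; edgeR adjusted p = 0.999). Mle_005922 (442 bases) had 893, 6630 and 8960 RPKM at 6 hpf and 11200, 7090 and 11700 RPKM at 7 hpf. It was low in 6 hpf 2012_23 alone, and its log2 fold change was 0.86 (SE 0.68; edgeR adjusted p = 0.999).

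The left-out libraries stood apart in different ways. The library 6 hpf 2012_N2 had r of 0.885 to 0.897 with the other libraries of 6 hpf and was nearest to 2 hpf 2012_N6 (r = 0.942). In it 524 transcripts lay at least 10-fold above all 3 other libraries of the hour and 10 lay as far below. Mle_022914 (486 bases) took 3850 CPM there and 0.392 to 3.20 CPM in the other 3, and elsewhere in the series it was highest in 9 hpf 2013_49 with 764 CPM. Mle_026615 (2585 bases) had 1.11 CPM there, against 656, 106 and 78.9 CPM in 2012_23, 2013_26 and 2013_46. The 50 transcripts had a median of 63.9 CPM in 6 hpf 2012_N2, above the 57.8 CPM of the highest 7 hpf library.

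The library 7 hpf 2012_N1 was nearest to 5 hpf 2012_N3 (r = 0.982), and the 50 transcripts had a median of 0.983 CPM in it, under every library of 6 and 7 hpf that was compared. Its r with 7 hpf 2013_17, 2013_27 and 2013_47 was 0.937, 0.915 and 0.843. Of these, 0.937 and 0.915 lay inside the range of the compared libraries of 1 hour (0.908 to 0.963). Transcripts at least 10-fold apart from the hour were counted for the left-out libraries alone, so these counts have no background. In 7 hpf 2012_N1, 29 transcripts lay at least 10-fold above the other libraries of 7 hpf and 25 below. Mle_003515 (637 bases) had 55.2 CPM there and 0.00 to 0.267 CPM in the others, and 60.1 CPM in 5 hpf 2012_N3. Mle_002195 (1045 bases) had 1.19 CPM there, against 374, 72.9 and 441 CPM in 2013_17, 2013_27 and 2013_47, and 0.560 CPM in 5 hpf 2012_N3. From 6 hpf 2012_N2 to 7 hpf 2012_N1, 1 of the 50 transcripts was higher (2.0%, median change -4.82), against 55.4% and 0.15 of all tested. With these libraries included, 0 transcripts passed in the comparison of 8 libraries and 659 had an unadjusted p under 0.05 (edgeR).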

How the data were processed

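The authors deposited whole-number counts per transcript record and the record lengths. Bowtie2 and SAMtools are named in the submitters' processing notes without versions; neither the reference nor the counting method is given in the sources used here, and counts of near-identical records are uncertain. Per the labels' protocols, total RNA was extracted with Trizol, polyadenylated RNA was selected on beads, and libraries were made with ScriptSeq V2. Groups come from the labels. The deposited RPKM table was not used; RPKM and CPM were computed from the counts.

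Counts were tested in R 4.3.3 with edgeR 4.0.16 (filterByExpr, TMM, quasi-likelihood, two-sided, threshold 0.05), the hour as a factor and no block, on 6 libraries. Limma 3.58.1 and DESeq2 1.42.0 were alternatives. The fits were tested on simulated data. SE was approximated from the log2 fold change and the square root of F. CPM of all libraries was put on 1 scale with TMM factors over the 15089 tested records. A 2-fold change is at least 1 on the log2(CPM + 1) scale. Ratios have exact 95% intervals from the counts. Descriptions used Python 3.11.15.

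Code series were read from the codes. Deviations from the hour means correlated at 0.595 and 0.555 within the 2 series, but no label says that a code marks a shared spawning.

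Named transcripts, at most 2 in each direction per comparison, needed a mean of at least 10 CPM. In the 6-library comparison they had no overlap, the same direction in both pairs and the smallest p, as none passed. In the pairs they had the largest smaller change, and for the left-out libraries the largest distance from the other 3. The libraries compared, the rules and the lists were chosen with earlier results of these data known. Tried were other factors, filters, tools, pseudocounts, sets of libraries, the block, and leaving out each library.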

Additional observations from a re-analysis of the deposited data

Results flagged for a closer look

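Among the 4 libraries of each hour, 26 groups of values were examined for a library far from the rest, a search that picks out about 1 in 20 groups by chance. The library 6 hpf 2012_N2 had 8184 records at 10 CPM or more, far above the 6344 to 6493 of the other 3. It also had 98.1% of its counts in the tested records, far below the 99.8% to 99.9% of the others. In 7 hpf 2013_17 the 10 highest records took 7.07% of the counts, far below the 9.26% to 9.69% of the other libraries of the hour. Mle_004122 was at 4.85 on the log2(CPM + 1) scale in 6 hpf 2013_26, far above the other 3 at 3.25 to 3.35. This transcript had been named for its fall in the pairs, 1 of which starts from 6 hpf 2013_26, and choosing by a fall favours a high value there. The library 6 hpf 2012_N2 had been left out beforehand for lying apart. The rate of 1 in 20 therefore does not hold for these values.

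The 50 transcripts that were at least 2-fold higher in both pairs moved the other way in the left-out libraries. Their median log2 change from 6 hpf 2012_N2 to 7 hpf 2012_N1 was -4.82, against 1.25 and 1.68 in series 2013_2 and 2013_4, which chose them. This difference was not tested. Over all tested transcripts the median change from 6 hpf 2012_N2 to 7 hpf 2012_N1 was 0.15.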

How the results depend on the processing

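The count of 0 transcripts higher and 0 lower was the same with RLE factors, library totals, no filter, limma, all 8, 29 or 20 libraries, the block over the 19 libraries of 2013 and without each library in turn; DESeq2 gave 1 higher. With the replicate block on the 4 paired libraries, 91 were higher and 4 lower, with RLE factors 99 and 4, without a filter 281 and 89, with DESeq2 124 and 11, and with limma 25 higher. Against 330 at an unadjusted p under 0.05, there were 1349 without a filter, 573 with DESeq2, 659 with 8, 544 with 29 and 786 with 20 libraries, and 54 to 975 without 1 library. The block gave 1393, with RLE factors 1386, totals 1059, no filter 1870, DESeq2 906 and limma 1352, and the 4 libraries without it 39.

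Transcripts wholly above or below were 137 and 789 with totals, 689 and 1005 without a filter, and 85 and 195 with 8 libraries. At log2(CPM + 0.1), 225 were higher and 92 lower in both pairs, and the shares read in the other pair were 81.1% and 53.8%. With totals 9 were lower, and at a mean of at least 10 CPM 1 was, with a share of 50.0%. Choosing in the second pair gave 76.2% for rises. The log2 fold change of Mle_028216 (-0.74) ran from -1.31 without 7 hpf 2013_27 to 0.20 without 6 hpf 2013_26. The causes were not tested. Of the values for named transcripts, 154 kept their direction and side of the threshold, 20 passed it under the block and 1 turned. On the 4 libraries, the fits with the block and other factors, filter or tools, and the fit without it, were chosen after seeing the data. The median SE of 0.62 limits the 6-library comparison; the block's rests on 1 residual degree of freedom.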
